A study of Mus musculus with 8 samples.

Results

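RNA levels of RasV12-expressing ASZ cells were set against those of wild-type ASZ cells with both lines under CBD, and the same line difference under the vehicle DMSO was placed beside it. ASZ is a mouse basal cell carcinoma line, and RasV12 is a mutant Ras, a small GTPase, that stays active. Genes were joined over the deposited tables of both lines by symbol, and a gene was used where its FPKM (fragments per kilobase of transcript and per 1e6 fragments) reached 1 in the wild-type or the RasV12 cells under CBD. This kept 10411 of 22769 joined symbols. The line difference of a gene is the log2(FPKM + 1) of RasV12 cells minus that of wild-type cells, minus the median of this quantity over the 10411 genes for the agent in question.

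The series held 8 libraries in 4 groups of 2, namely wild-type ASZ with DMSO, wild-type ASZ with CBD, RasV12 with DMSO and RasV12 with CBD. Both lines thus share the ASZ background, and the RasV12 cells carry the expressed Ras on top of it. The labels do not spell out CBD, give no dose or exposure time, and do not say which Ras gene was expressed, from which promoter, or whether the RasV12 cells were a clone or a pool. Each gene had 1 deposited FPKM value per group and none per library. No error between libraries can therefore be attached to a line difference, and none of the line differences below was tested. Where a response to CBD within a line is called a rise or a fall, it rests on the authors' deposited p-value for CBD against DMSO, adjusted here by the Benjamini-Hochberg method within each line and called under 0.05. Those p-values measure only the spread between libraries that may be technical replicates. They also differ in kind between the lines. Among the named and listed genes they ran down to 0 in wild-type cells, but to no less than 5e-05 in RasV12 cells. The calls may thus differ in sensitivity between the lines, which was not tested, and this bears on each gene called in only 1 line.

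Activated Ras signals through Raf, Mek and Erk kinases to transcription factors of the Ets and AP-1 families, and the pathway is restrained by feedback inhibitors such as the Sprouty proteins and the dual-specificity phosphatases. Basal cell carcinoma is driven mostly by Hedgehog signalling, in which Ptch1 holds back Smo and the Gli factors are processed at the primary cilium. In keratinocytes both pathways act on growth and differentiation, and inflammatory genes under NF-kB are often high in cells with active Ras.

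The cells carried the markers of basal keratinocytes in all 4 groups. Krt14, a keratin of the basal layer, was at 5277 FPKM in wild-type cells under DMSO, 4109 under CBD, 4745 in RasV12 cells under DMSO and 3609 under CBD. Its partner Krt5 ran from 3408 to 6226 FPKM over the same groups. None of 6 fibroblast markers reached 1 FPKM in any group. Of 5 leukocyte markers only Cd68, a lysosomal protein, did so (16.5 FPKM in wild-type and 53.8 in RasV12 cells under CBD), and Ptprc, which defines leukocytes, was listed at 0 in both lines under CBD. Pecam1 was the only endothelial marker of 4 at 1 FPKM or more. Summed, the 4 endothelial markers stood at 15.5 and 9.47 FPKM in wild-type cells under DMSO and CBD, and at 16.5 and 23.4 FPKM in RasV12 cells. Of 4 melanocyte markers, 1 reached 1 FPKM in each line under CBD, a different one in each. The marker that did so in wild-type cells had a centred line difference of -1.95 under CBD, and the other -0.08. Before centring, the median line difference was 0.52 under CBD and 0.16 under DMSO on the log2 scale, so all differences are given relative to these shifts. Depth was estimated by reading the median of FPKM times transcript length (kb), among values between 0.02 and 0.06, as 1 fragment. This gives 10.6 M (RasV12 CBD) to 15.4 M (RasV12 DMSO) fragments per library (M is 1e6). The window bounds this estimate in advance, and a scale factor would move it as depth does, so it does not establish the depth.

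Hras and Nras themselves were close between the lines. Hras stood at 74.98 FPKM in wild-type and 94.4 FPKM in RasV12 cells under CBD, against 59.9 and 60.2 under DMSO. Nras was at 28.1 and 30.4 FPKM under CBD. Their centred line differences under CBD were -0.19 and -0.41. A gene-level FPKM does not separate a mutant transcript from the endogenous one, and a construct from another species may not be counted, so these values check the label in neither direction.

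Under CBD, 499 genes (4.79% of those used) were higher in RasV12 cells by 1 or more on the log2 scale and 413 (3.97%) were lower. Under DMSO the counts were 407 (3.91%) and 197 (1.89%). Past 1 in either direction were thus 912 genes (8.76%) under CBD and 604 (5.8%) under DMSO. This split depends on the scaling, with 1868 higher and 130 lower under CBD without centring, 923 and 192 with equal FPKM sums, and 1046 and 206 with no filter on low values. Across the genes used, the centred differences under both agents had a Pearson correlation of 0.46 (Spearman 0.44), or 0.53 without short RNA loci. The agents share no library, but each line has its own table, so a difference between the tables in annotation enters both values. These kinds of line difference were told apart. A difference is called appearing where it was at least 1 in size under CBD and under 0.5 under DMSO, vanishing where the reverse held, kept where it was at least 1 under both with the same sign, and turned where the sign was opposite. There were 392 appearing, 126 vanishing, 255 kept and 18 turned genes. The limit of 1 FPKM was set on the CBD groups, so genes that reach it only under DMSO are absent. This can lower the DMSO counts and the vanishing class. With the limit met in any of the 4 groups, 406 appeared and 172 vanished.

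Short RNA loci crowd the ends of this comparison. Loci for microRNAs, small nucleolar RNAs and similar transcripts made up 73 of the genes used, and 56 of them (76.7%) were past 1 in either direction under CBD, against 8.76% of all genes used. Of the 10 highest genes 7 were such loci, as were all 10 of the lowest. Mir5133 was listed at 0 in both wild-type groups and at 63.1 and 385 FPKM in RasV12 cells under DMSO and CBD. Bc1, a short cytoplasmic RNA, was listed at 0 in wild-type cells under DMSO and at 57.5 FPKM under CBD, and ran the other way in RasV12 cells, from 28.2 FPKM to 0. For 52 of the 73 at least 1 of the 4 values was 0, and none of the short loci named for a high or low value had a called response in either line. The class counts and named genes below leave these loci out, a choice made after the values were seen. It left 364 appearing, 122 vanishing, 242 kept and 8 turned genes.

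**Figure D1:**
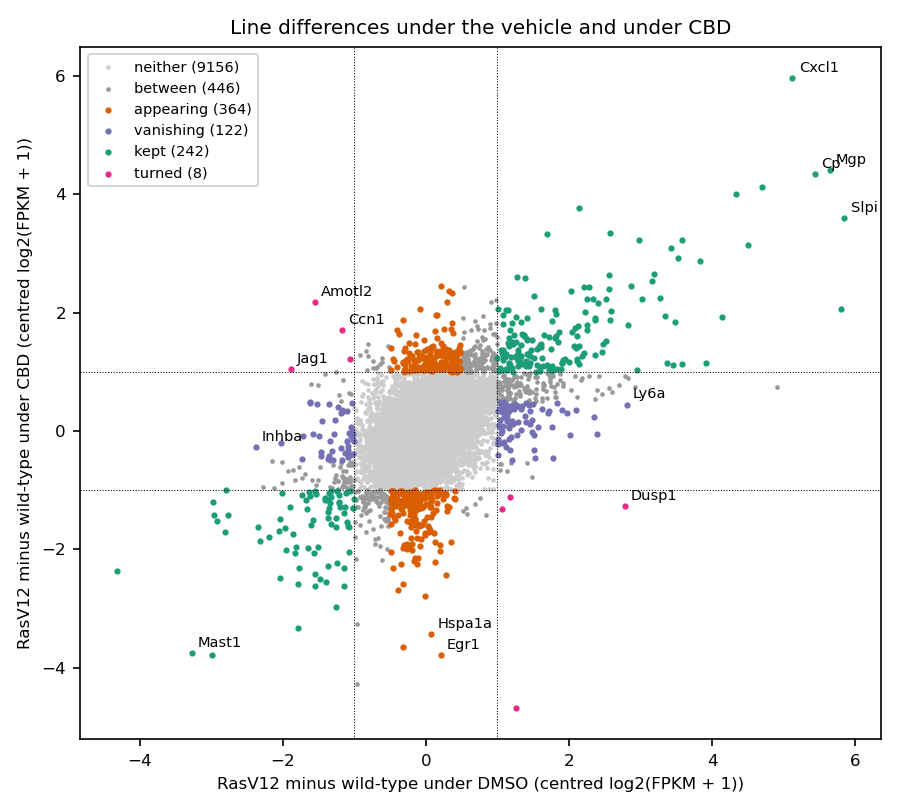
Each point is a gene without short RNA loci, with its centred log2(FPKM + 1) line difference under DMSO on the horizontal axis and under CBD on the vertical axis, coloured by class with the number of genes in brackets. Dotted lines mark 1 and -1. Cxcl1 lies far out in the upper right, and Egr1 and Hspa1a lie far below 0 under CBD while close to 0 under DMSO.

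Cxcl1, Mgp and Cp were the highest of the differences that were kept. Cxcl1, a neutrophil-attracting chemokine, was at 1.06 FPKM in wild-type and 182 FPKM in RasV12 cells under CBD, and at 1.99 and 116 under DMSO, which gives centred differences of 5.95 and 5.12. Mgp, the matrix Gla protein that restrains calcification, was at 0.229 and 36.3 FPKM under CBD and at 0.550 and 85.5 under DMSO. Cp, which encodes the copper-carrying ferroxidase ceruloplasmin, was at 1.77 and 79.6 FPKM under CBD and at 0.931 and 92.5 under DMSO. In all 3 the values of the RasV12 groups lay far above those of both wild-type groups. Slpi, a secreted protease inhibitor, stood 5.85 higher under DMSO and 3.601 higher under CBD, and it rose in wild-type cells from 0.239 to 2.50 FPKM (adjusted p = 0.00309 by the authors' test). The membrane proteins Tmem176a and Tmem176b had differences of 4.002 and 4.11 under CBD. Hcar2, a receptor for hydroxybutyrate and niacin, had one of 3.23.

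Among the highest genes, Cx3cl1 and Megf6 had a wider gap under CBD than under DMSO. Cx3cl1, a membrane-bound chemokine, fell in wild-type cells from 6.74 to 2.56 FPKM and rose in RasV12 cells from 26.9 to 50.3. Its line difference was 1.69 under DMSO and 3.33 under CBD. Megf6, an EGF-repeat protein, fell in wild-type cells from 3.87 to 0.641 FPKM and was at 31.2 and 22.8 in RasV12 cells, with differences of 2.57 and 3.34. Whether the responses of the lines differ was not tested for either gene.

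Among the genes lower in RasV12 cells under both agents, Mast1, a microtubule-associated kinase, was at 14.2 and 15.4 FPKM in wild-type cells and at 0.754 and 0.751 in RasV12 cells. Plb1, a phospholipase, was at 47.1 and 56.7 FPKM against 5.79 and 5.01. Neither gene had a called response to CBD in wild-type cells. Bbox1, an enzyme of carnitine synthesis, fell in RasV12 cells from 5.32 to 2.12 FPKM, and its difference went from -1.78 to -3.32. Of the 242 kept genes without short loci, 167 were higher and 75 lower in RasV12 cells, and 98 had a called response in neither line, beside 3706 of all 10338 genes without short loci (35.8%).

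NF-kB and chemokine genes held the highest median of the 27 pathway lists under both agents. Of 17 members used, 7 were higher and 0 lower under CBD, with a median difference of 0.95, against 9 higher, 1 lower and a median of 1.00 under DMSO. Nfkbia, which encodes the inhibitor that retains NF-kB in the cytoplasm, was at 17.9 FPKM in wild-type and 91.3 FPKM in RasV12 cells under CBD. Icam1, an adhesion receptor for leukocytes, was at 0.815 and 21.2 FPKM. Tnfaip3, a deubiquitinase that dampens the pathway, rose in RasV12 cells from 3.72 to 11.9 FPKM and was at 1.96 and 1.405 FPKM in wild-type cells, with a difference of 0.51 under DMSO and 1.91 under CBD. Ccl2, a monocyte chemokine, ran the other way, with 4.14 under DMSO and 1.93 under CBD. Ptgs2, the inducible prostaglandin synthase, was lower in RasV12 cells under DMSO (-2.02) and at -0.20 under CBD.

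The start regions of 2 members whose difference was kept are shown because they carry the letters of an NF-kB site. Sequences are from RefSeq, build GRCm38.p6, in the direction of transcription and 150 bases long, ending at the base before the annotated start. Cxcl1 lies at chr5:90891095-90891244 on the plus strand and Nfkbia at chr12:55492648-55492797 on the minus strand. Capitals mark GGG followed by any 2 bases and TTTCC, or the reverse complement of this motif.
Cxcl1: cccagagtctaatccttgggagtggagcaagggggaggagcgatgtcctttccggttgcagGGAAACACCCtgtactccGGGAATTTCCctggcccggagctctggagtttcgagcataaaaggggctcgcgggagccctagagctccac
Nfkbia: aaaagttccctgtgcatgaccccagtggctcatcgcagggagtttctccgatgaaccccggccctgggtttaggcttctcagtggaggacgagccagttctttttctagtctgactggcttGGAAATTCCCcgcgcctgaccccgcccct
In the 250 bases before the start these letters stood in 1.41% of 32851 windows and in 1.86% of 8280 genes used that had a window. Of the 7 NF-kB genes higher under CBD, 5 had a window and 4 of those a match, as did 4 of 7 among the other members. The match is a description of letters and was not tied to binding.

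The line differences that appeared with CBD fall into 161 higher and 203 lower genes without short loci. Of the 161 higher, 119 fell with CBD in wild-type cells, where 42.4% of the genes tested fell and 14% rose. In RasV12 cells 82 of these 119 had no called response, 18 rose and 19 fell too. Another 33 rose in RasV12 cells with no call in wild-type cells. Whatever the wild-type call, 57 of the 161 rose in RasV12 cells and 19 fell. Among all genes tested in that line 18.7% rose and 24.4% fell. Of the 203 lower genes, 102 rose in wild-type cells, and 84 of those had no called response in RasV12 cells. For 57 neither response was called, beside the 35.8% given above. These shares follow in part from the class itself, since a difference can appear only if the lines respond unequally.

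**Figure D2:**
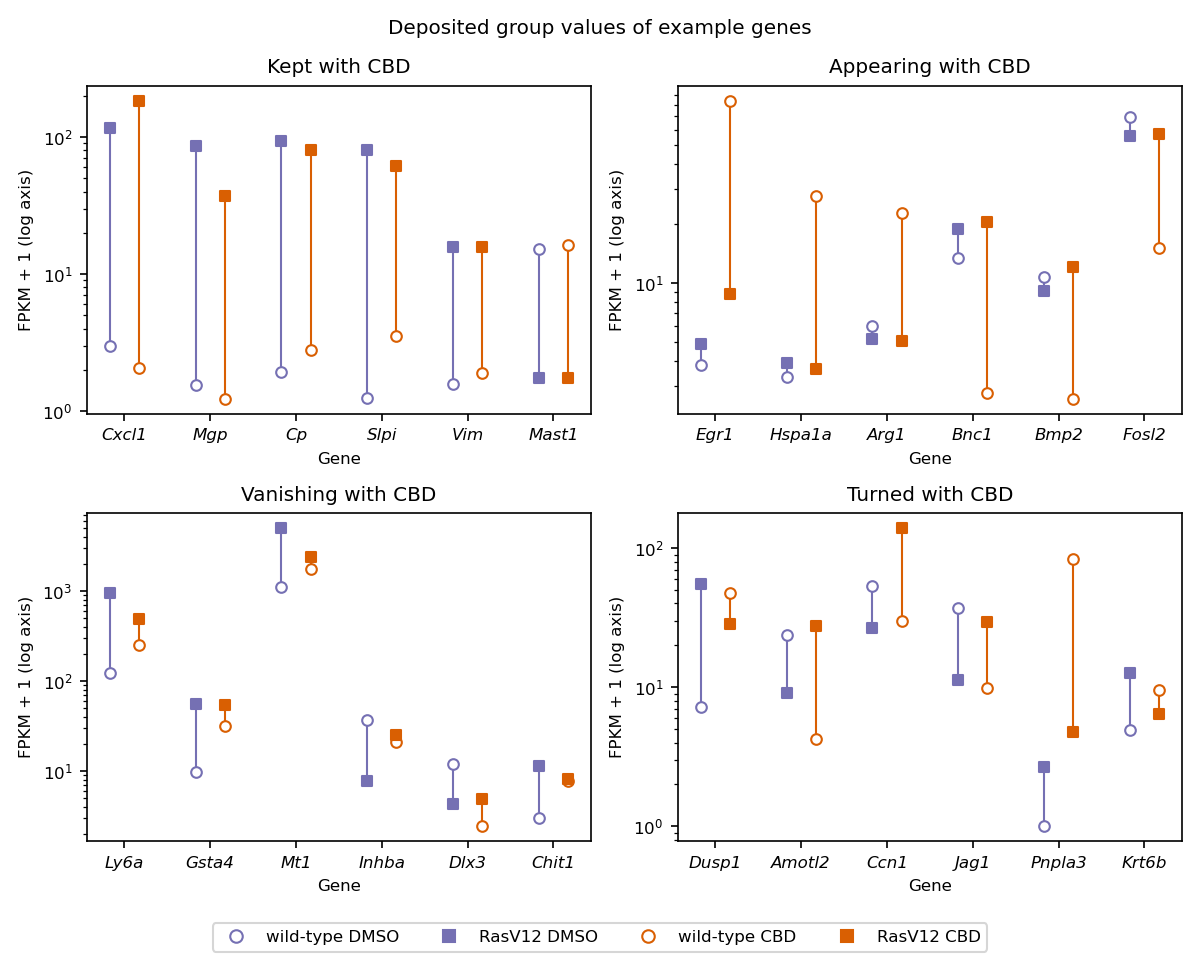
Deposited FPKM + 1 on a log axis for 6 genes of each class, with open circles for wild-type and squares for RasV12 cells, blue for DMSO and orange for CBD. Each marker is the single group value of 2 libraries, so no error bar can be drawn. Egr1 and Hspa1a stand apart only through the wild-type CBD value, and the markers of Dusp1 and Amotl2 change places between agents.

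Among the lowest of the appearing differences were Egr1, Adgre5 and Hspa1a. Egr1, an immediate early transcription factor downstream of Erk, was at 2.80 FPKM in wild-type and 3.90 FPKM in RasV12 cells under DMSO. Under CBD it reached 83.0 FPKM in wild-type cells and 7.79 FPKM in RasV12 cells, a centred difference of -3.78. It rose in both lines by the authors' test (deposited p-value of 0 in wild-type cells, adjusted p = 0.0168 in RasV12 cells). Hspa1a, an inducible Hsp70 chaperone, rose in wild-type cells from 2.31 to 26.6 FPKM and was at 2.90 and 2.66 FPKM in RasV12 cells, with a difference of 0.08 under DMSO and -3.43 under CBD. Arg1, the urea-cycle arginase, rose in wild-type cells from 5.04 to 21.7 FPKM and was at 4.18 and 4.04 FPKM in RasV12 cells. Serpinb2, a plasminogen activator inhibitor, rose in wild-type cells (5.03 to 9.12 FPKM) and fell in RasV12 cells (7.22 to 1.68 FPKM).

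Ctcfl, a testis paralogue of the insulator protein CTCF, rose in wild-type cells from 1.04 to 13.2 FPKM and was at 1.95 FPKM in RasV12 cells under CBD. Nanog, a pluripotency factor, rose from 0.691 to 5.87 FPKM in wild-type cells and was at 1.14 in RasV12 cells under CBD. Omd, a matrix proteoglycan of bone, rose from 1.53 to 19.2 FPKM in wild-type cells and was at 3.83 in RasV12 cells under CBD. Adgre5, an adhesion receptor, had no called response in wild-type cells (8.59 and 8.63 FPKM) and fell in RasV12 cells from 7.62 to 0.106 FPKM (adjusted p = 0.0299 by the authors' test). Reads of Nanog can also come from its pseudogenes, so that gene is uncertain.

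Heat shock genes had the lowest median of the 27 pathway lists under CBD. Of 21 members, 8 were lower and 0 higher in RasV12 cells under CBD, with a median difference of -0.65, while under DMSO none was past 1 and the median was 0.04. Without centring the median was -0.13, and only Hspa1a and Hspa1b of the 8 were past -1. Hspb1, a small heat shock protein of the epidermis, rose in wild-type cells from 976 to 3149.8 FPKM and was at 1561 and 1767 FPKM in RasV12 cells, where its response was not called. Cryab, the related alpha-B crystallin, rose in both lines, to 343 and 176 FPKM. Hspa1b rose in wild-type cells from 55.3 to 89.8 FPKM and fell in RasV12 cells from 67.9 to 34.6 FPKM. Hspa1a and Hspa1b are near-identical copies, so reads may have been split between them. Hsp90aa1, Dnajb1, Hspe1 and Hsph1, chaperones and co-chaperones, had differences of -1.28, -1.004, -1.10 and -1.04 under CBD. Under DMSO these were 0.33, 0.12, -0.63 and -0.64. Without centring, Hspe1 went from -0.47 under DMSO to -0.58 under CBD and Hsph1 from -0.48 to -0.51. Bag3, a co-chaperone of Hsp70, was at 0.55 under CBD, Dnajb4 at 0.56 and Hspa4l at 0.58, the 3 members above 0. Of the 21 members, 10 rose and 6 fell with CBD in wild-type cells, beside 14% and 42.4% of all genes tested. In RasV12 cells 8 rose and 6 fell, beside 18.7% and 24.4%.

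The start regions of 3 of the 8 lower heat shock genes are shown for the heat shock element, the letters bound by Hsf1. Capitals mark GAANNTTC or TTCNNGAA, each its own reverse complement, and overlapping matches run together. Sequences are from RefSeq, build GRCm38.p6, 150 bases ending before the start. Hspa1a lies at chr17:34972157-34972306 on the minus strand, Hspe1 at chr1:55087998-55088147 on the plus strand and Hspb1 at chr5:135887769-135887918 on the plus strand.
Hspa1a: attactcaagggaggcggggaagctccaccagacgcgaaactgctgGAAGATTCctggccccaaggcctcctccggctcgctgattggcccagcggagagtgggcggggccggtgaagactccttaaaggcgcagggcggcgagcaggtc
Hspe1: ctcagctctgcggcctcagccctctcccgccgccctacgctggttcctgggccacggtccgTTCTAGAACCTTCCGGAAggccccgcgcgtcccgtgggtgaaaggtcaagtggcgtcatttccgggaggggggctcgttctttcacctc
Hspb1: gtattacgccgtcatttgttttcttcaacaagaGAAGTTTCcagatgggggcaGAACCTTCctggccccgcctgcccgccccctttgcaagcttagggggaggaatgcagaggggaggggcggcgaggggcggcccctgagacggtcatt
Hspa1a holds 1 match in this stretch, Hspb1 holds 2 and Hspe1 holds 3 in a row. In the 250 bases before the start, the letters stood in 12.8% of 32851 windows and in 11.9% of 8280 genes used. Of the 8 lower members 6 had a window and 5 a match, and of the other 13 members 9 had a window and 3 a match. The stretches of Hspa1a and Hspa1b are nearly the same, so their matches do not count separately. Hspd1, among the other members with a match, was at -0.94. As above, the match describes letters and was not tied to binding.

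Other immediate early genes moved in both directions. Of 23 members, 3 were higher and 3 lower under CBD (median 0.19), against 4 higher and 0 lower under DMSO (median 0.35). Fos, the AP-1 subunit, rose in both lines, to 23.9 FPKM in wild-type and 17.1 FPKM in RasV12 cells from 0.278 and 1.62. Ier2 rose in both lines too, with a difference of 0.30 under DMSO and -1.35 under CBD, and Jund, a Jun-family subunit, rose in wild-type cells from 108 to 327 FPKM and reached a difference of -1.27. Fosl2, a Fos-family subunit, fell in wild-type cells from 68.7 to 13.95 FPKM and was at 54.6 and 56.0 FPKM in RasV12 cells, a difference of 1.41 under CBD. Atf3, a stress-induced factor of the ATF/CREB family, went from 1.53 under DMSO to -0.46 under CBD.

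**Figure D3:**
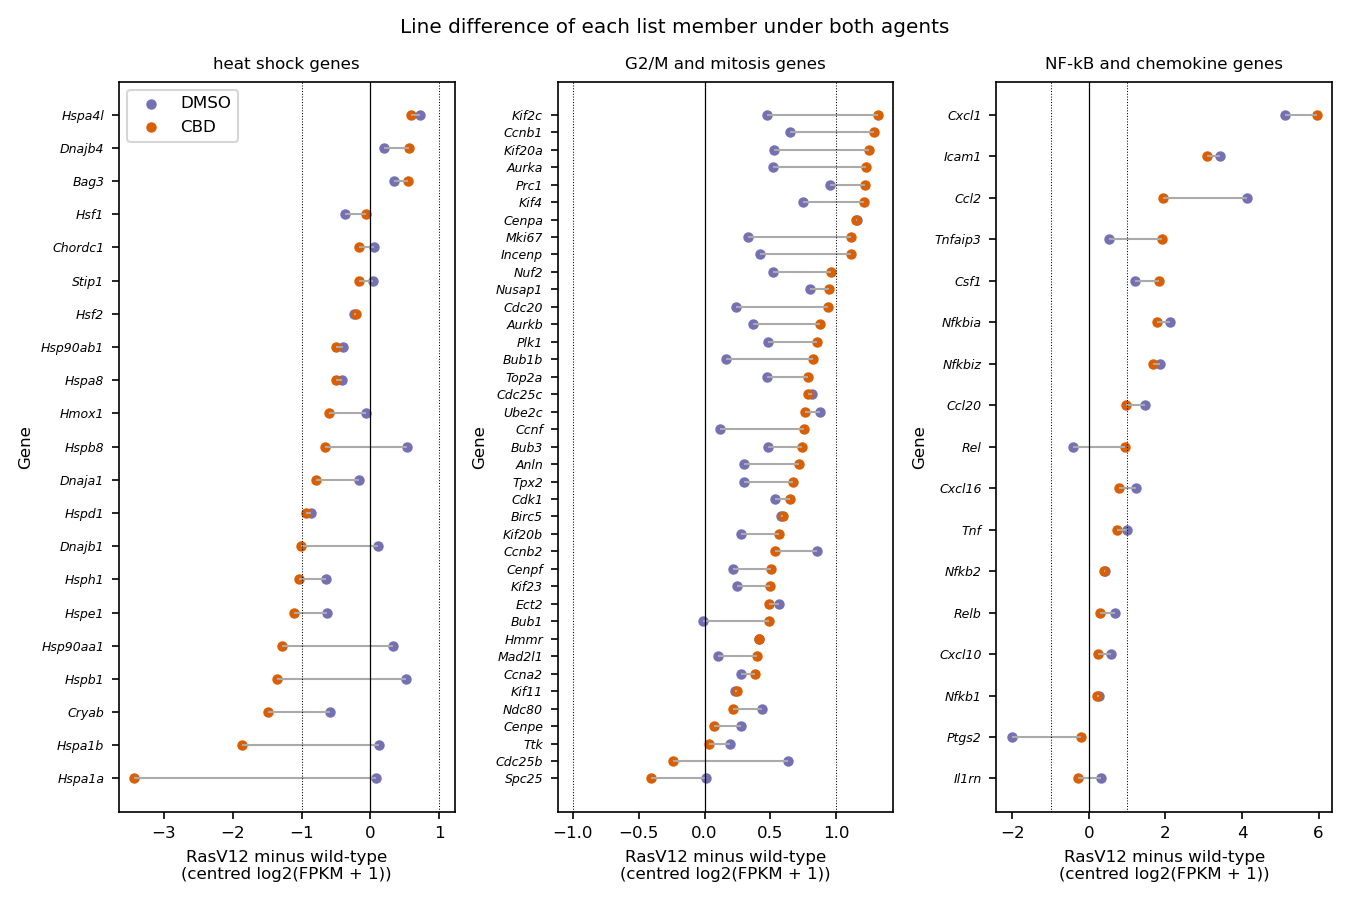
Each row is a member at 1 FPKM or more of 3 gene lists, with its centred log2(FPKM + 1) line difference under DMSO in blue and under CBD in orange, and dotted lines at 1 and -1. The horizontal axes differ between panels. Under CBD 8 heat shock genes lie at or below -1, 37 of 39 G2/M genes lie above 0, and 7 NF-kB and chemokine genes lie above 1.

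Genes turned on by the Ras/MAPK pathway had medians above 0 under both agents. Of 29 output genes used, 5 were higher and 1 lower under CBD (median 0.58), against 4 higher and 1 lower under DMSO (median 0.32). Spry1, a feedback inhibitor, rose in both lines, from 1.22 to 6.70 FPKM in wild-type and from 3.62 to 35.9 FPKM in RasV12 cells, with a difference of 1.74 under CBD. Its relative Spry2 was higher under DMSO (1.48) and at -0.02 under CBD. Epha2, a receptor tyrosine kinase, fell in wild-type cells from 17.2 to 6.99 FPKM and was at 24.9 and 36.9 FPKM in RasV12 cells, a difference that appeared at 1.72. Plau, the urokinase plasminogen activator, rose in RasV12 cells from 9.14 to 21.5 FPKM and was at 6.86 and 4.57 FPKM in wild-type cells. Hbegf, a ligand of the EGF receptor, rose in both lines, to 13.95 and 44.5 FPKM, and its difference went from -0.69 to 1.08. Dusp6, an Erk phosphatase, had 1.14 under DMSO and 0.65 under CBD, and Etv4, an Ets factor, had 0.71 and 0.11. Among 29 pathway components only Fgfr1, a receptor, was past 1 under CBD (1.03), and the median was -0.17 with centring and 0.35 without.

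Line differences that vanished with CBD numbered 80 higher and 42 lower under DMSO. Of the 80 higher, 25 rose with CBD in wild-type cells and 35 fell in RasV12 cells, while 22 had a called response in neither, beside 35.8% of all genes. Of the 42 lower, 32 fell in wild-type cells and 18 rose in RasV12 cells. Among all genes tested, 14% rose and 42.4% fell in wild-type cells, and 18.7% rose and 24.4% fell in RasV12 cells. As with the appearing genes, these counts follow in part from the class itself, since a difference can vanish only if the lines respond unequally. Ly6a, the surface protein Sca-1, was at 122 FPKM in wild-type and 956 FPKM in RasV12 cells under DMSO and at 249 and 488 FPKM under CBD, having risen in the former and fallen in the latter. Mt1, a metal-binding metallothionein, showed the same pattern, with 1103 and 4987 FPKM under DMSO and 1760.4 and 2412 FPKM under CBD. Gsta4, a glutathione transferase for lipid aldehydes, rose in wild-type cells from 8.73 to 30.8 FPKM and was at 54.6 and 53.2 FPKM in RasV12 cells. Wfdc18, a whey acidic protein family member, rose in wild-type cells from 5.19 to 22.5 FPKM against 35.3 and 31.6 FPKM in RasV12 cells. Chit1, a chitinase, rose in wild-type cells from 2.01 to 6.89 FPKM and was at 10.6 and 7.30 FPKM in RasV12 cells, where its response was not called.

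In the other direction, Inhba, the activin subunit, fell in wild-type cells from 35.8 to 20.4 FPKM and rose in RasV12 cells from 6.92 to 24.5 FPKM, so its difference went from -2.38 to -0.27. Dlx3, a homeobox factor of epidermal differentiation, fell in wild-type cells from 11.0 to 1.46 FPKM and was at 3.37 and 3.90 FPKM in RasV12 cells. NRF2 and glutathione genes, the antioxidant programme, had 8 of 32 members higher and 1 lower under DMSO (median 0.54) and 4 higher and 1 lower under CBD (median 0.17). Gclc, which starts glutathione synthesis, went from 1.29 to 0.15 and Slc7a11, the cystine importer, from 1.07 to -0.20. Akr1b8, an aldo-keto reductase, kept its difference at 2.25 and 2.22, as did Gsto1, a glutathione transferase, at 1.75 and 1.39.

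Without short loci, 8 line differences turned. Dusp1, an immediate early phosphatase of MAP kinases, rose in wild-type cells from 6.19 to 46.8 FPKM and fell in RasV12 cells from 54.1 to 27.6 FPKM, which took the difference from 2.78 to -1.26. Without centring the latter was -0.74. Amotl2 and Ccn1, targets of the YAP pathway, did the reverse. Amotl2 fell in wild-type cells from 22.8 to 3.24 FPKM and rose in RasV12 cells from 8.08 to 26.6 FPKM. Ccn1, a matrix protein, fell from 52.4 to 28.8 FPKM and rose from 25.4 to 138 FPKM. Of 23 YAP/TEAD and SRF targets, 6 were higher and 2 lower under CBD (median 0.24), against 2 and 2 under DMSO (median -0.18). Only 2 of the 23 turned and 2 were kept. Ccn2, 1 of those kept, fell in both lines, and its difference went from 2.10 to 1.39. Jag1, a Notch ligand, fell in wild-type cells from 36.2 to 8.93 FPKM and rose in RasV12 cells from 10.2 to 28.5 FPKM. Over all genes used, 75 fell in wild-type cells and rose in RasV12 cells, and 12 did the opposite.

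The Hedgehog and cilium lists had medians of 0.17 (targets), 0.12 (components) and 0.08 (cilium) under CBD, or 0.70, 0.64 and 0.60 without centring. Under DMSO the centred medians were -0.31, -0.08 and 0.09. Gli1, the transcriptional readout of the pathway, was at 2.73 FPKM in wild-type and 0.953 FPKM in RasV12 cells under DMSO, and at 0.682 and 0.630 FPKM under CBD, below the limit for inclusion. Ptch1, the receptor and target, was at 0.409 and 1.12 FPKM under CBD, and Smo, the signal transducer, at 28.8 and 40.7 FPKM. Of 8 target genes used, Bmp2 was higher (1.70) and Ccnd2, a cyclin, lower (-1.21). None of 25 pathway components was past 1 under CBD, while 4 were lower under DMSO. Gas1, a Hedgehog co-receptor, fell in both lines, from 65.9 to 4.21 FPKM in wild-type and from 23.5 to 12.0 FPKM in RasV12 cells, and its difference went from -1.61 to 0.79. Of 66 cilium genes, Fbf1, a transition fibre protein (1.22), and Ift80, an intraflagellar transport subunit (1.01), were past 1 under CBD, and the list's median was 0.08 under CBD and 0.09 under DMSO. Arl13b, a ciliary GTPase, had 0.80 under DMSO and 0.02 under CBD, and Kif3a, a ciliary motor subunit, had 0.07 and -0.51.

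Mitotic genes stood higher by their median in RasV12 cells under both agents, and more so under CBD. Of 39 G2/M genes, 9 were higher and 0 lower, 37 lay above 0 and the median was 0.74, against 1 higher and a median of 0.44 under DMSO. With CBD 29 of them fell in wild-type cells and 20 fell in RasV12 cells, beside 42.4% and 24.4% of all genes tested. Mki67, the proliferation antigen, fell from 19.0 to 4.44 FPKM in wild-type and from 27.0 to 15.9 FPKM in RasV12 cells. Ccnb1, the mitotic cyclin, fell from 43.9 to 7.04 FPKM and from 77.9 to 27.2 FPKM. Aurka, a spindle kinase, fell in wild-type cells from 48.1 to 20.1 FPKM and was at 77.7 and 70.0 FPKM in RasV12 cells. Genes of G1/S and DNA replication had 1 higher and 2 lower of 35 under CBD (median 0.14), against 0 higher and 2 lower under DMSO (median -0.49). Cdt1, a replication licensing factor, fell in wild-type cells from 28.3 to 12.3 FPKM and rose in RasV12 cells from 20.4 to 43.8 FPKM. Cdkn1a, the p21 inhibitor of cyclin-dependent kinases, had a difference of 0.86 under DMSO and -0.16 under CBD.

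**Figure D4:**
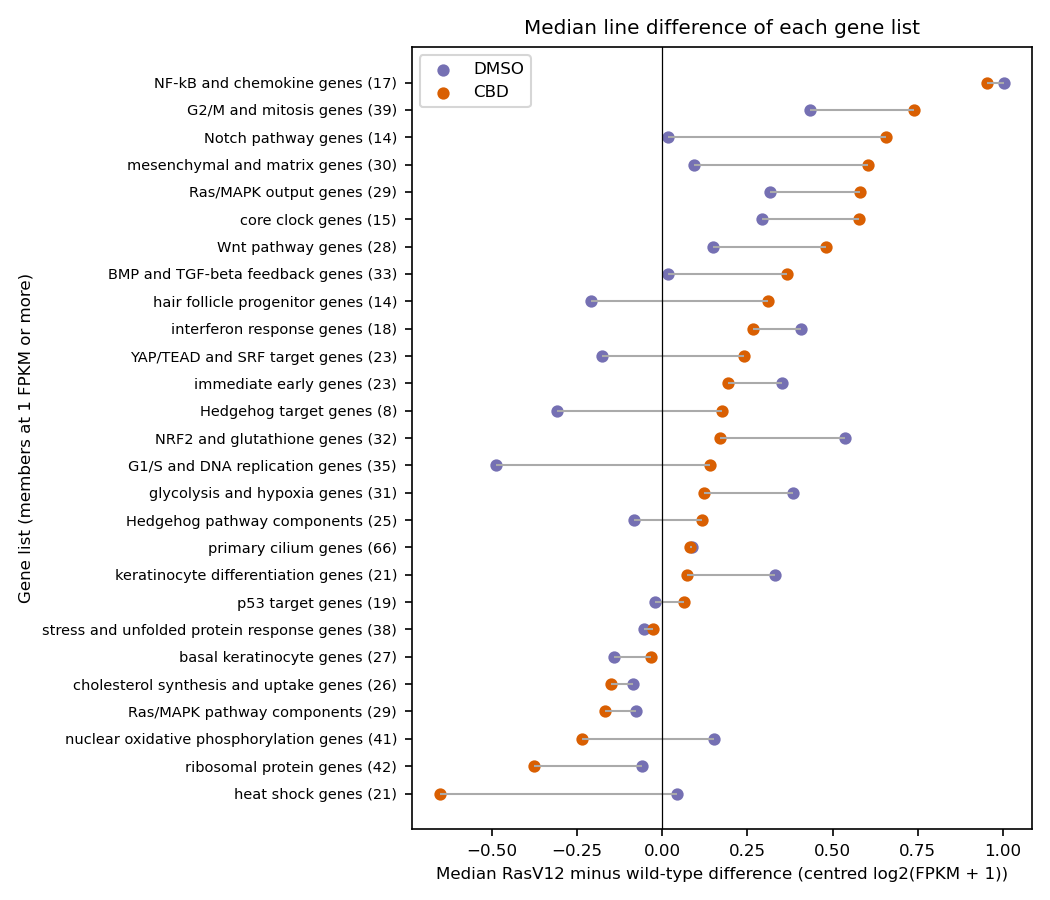
Median centred log2(FPKM + 1) line difference of each gene list under DMSO (blue) and CBD (orange), with the number of members at 1 FPKM or more in brackets and the lists ordered by the CBD value. The median of all genes used is 0 by construction. Heat shock genes lie lowest under CBD at -0.65 and NF-kB and chemokine genes highest at 0.95.

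Among 27 basal keratinocyte genes (median -0.03 under CBD), Bnc1, a basal zinc-finger factor, and Krt15, a keratin of stem cells, were higher under CBD and none was lower. Bnc1 fell in wild-type cells from 12.4 to 1.75 FPKM and was at 17.7 and 19.3 FPKM in RasV12 cells, a difference that appeared at 2.36. Trp63, the master factor of basal cells, fell in both lines, to 20.7 FPKM in wild-type and 53.2 FPKM in RasV12 cells. Of 21 differentiation genes, 4 were higher and 6 lower under CBD (median 0.07), against 7 higher and 2 lower under DMSO (median 0.33). Sbsn, a suprabasal secreted protein, rose in wild-type cells from 70.0 to 148 FPKM and fell in RasV12 cells from 39.6 to 21.3 FPKM, a difference of -3.27. S100a14, a calcium-binding protein, rose in wild-type cells from 6.53 to 20.6 FPKM and was at 6.84 FPKM in RasV12 cells under CBD. Ly6d was higher in RasV12 cells under both agents (3.34 and 1.94), as was Krtdap (3.91 and 1.15), both proteins of stratified epithelium.

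Mesenchymal and matrix genes were split. Of 30 members, 7 were higher and 4 lower under CBD (median 0.61), against 4 and 4 under DMSO (median 0.09). Vim, the mesenchymal intermediate filament, was at 0.580 and 0.897 FPKM in wild-type and 14.7 and 14.8 FPKM in RasV12 cells. Spp1, the secreted osteopontin, kept a difference of 3.83 and 2.87. Cdh2, N-cadherin, fell in both lines and was lower in RasV12 cells, at 3.72 FPKM against 15.4 under CBD. The matrix proteins Tnc and Fn1 were lower in RasV12 cells under DMSO (-1.73 and -1.46) and at -0.47 and -0.36 under CBD. Cdh1, E-cadherin, was at 83.4 and 95.9 FPKM under CBD.

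The medians of the BMP, Notch and Wnt lists were higher under CBD than under DMSO. Of 33 BMP and TGF-beta genes, 10 were higher and 1 lower under CBD (median 0.37), against 3 and 3 under DMSO (median 0.02), and 21 fell in wild-type and 10 in RasV12 cells, beside 42.4% and 24.4% of all genes tested. Bmp2, a secreted ligand, fell in wild-type cells from 9.69 to 1.58 FPKM and was at 8.05 and 11.1 FPKM in RasV12 cells. Tgfb1, the ligand, rose in RasV12 cells from 36.3 to 88.3 FPKM and was at 21.2 and 24.6 FPKM in wild-type cells. Smad7 and Skil, inhibitors of the pathway, had 1.18 and 1.39 under CBD and 0.01 and 0.01 under DMSO. Of 14 Notch genes, 3 were higher under CBD and 1 was lower under DMSO (medians 0.66 and 0.02), with the ligand Dll1 falling in wild-type cells from 21.03 to 6.47 FPKM and rising in RasV12 cells from 12.8 to 26.4 FPKM. Of 28 Wnt genes, 6 were higher and 1 lower under CBD and 4 and 2 under DMSO (medians 0.48 and 0.15), led by the receptor Fzd1, which fell in both lines and had 1.39 under DMSO and 2.58 under CBD.

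Core clock genes had 5 of 15 members higher and 0 lower under CBD (median 0.58), against 2 higher under DMSO (median 0.29). Nr1d1, the repressor Rev-erb alpha, rose in both lines, from 36.4 to 195 FPKM in wild-type and from 33.0 to 746 FPKM in RasV12 cells. Per1, a period gene, rose from 14.1 to 39.0 FPKM and from 68.0 to 294 FPKM, and was higher in RasV12 cells under both agents. Ciart, a clock repressor, rose in both lines and its difference appeared at 1.69.

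Highly expressed housekeeping lists depended on the centring. All 42 ribosomal protein genes rose with CBD in both lines, beside 14% and 18.7% of all genes tested. Their median difference under CBD was -0.38 with centring and 0.14 without. Nuclear genes of oxidative phosphorylation had a median of -0.24 with centring and 0.29 without, and none of 41 was past 1. The medians of the MAPK components, the stress, the basal keratinocyte and the cholesterol genes likewise turned positive without centring. Ldha, a glycolytic enzyme, rose in wild-type cells from 396 to 806 FPKM and had a difference of -1.26, while Car12, a hypoxia-responsive carbonic anhydrase, rose in RasV12 cells from 47.4 to 116 FPKM and had 2.06.

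Transcript length moved with the line difference in opposite ways under the agents. Over 10299 genes with a known length, the Spearman correlation of length with the difference was 0.13 under CBD and -0.22 under DMSO, given across genes as a description. In the shortest of 10 length bins the median was -0.23 under CBD and 0.11 under DMSO, and in the longest it was 0.04 and -0.22. Its part in the named differences was not tested, but centring within length bins left 483 higher and 386 lower genes and 356 appearing differences, short loci included, against 499, 413 and 392. By level, the share of genes past 1 under CBD was 5.44% from 1 to 3 FPKM, 8.16% to 10 FPKM, 10.9% to 30 FPKM, 9.53% to 100 FPKM and 9.80% above.

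**Figure D5:**
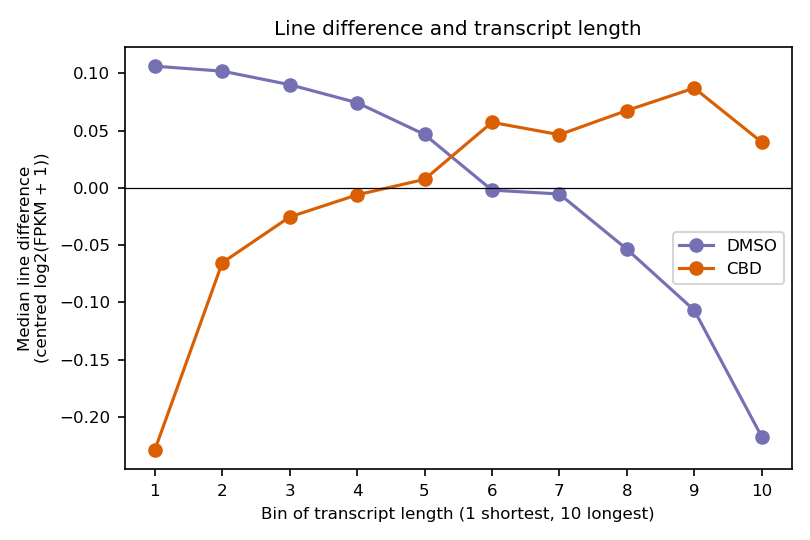
Median centred log2(FPKM + 1) line difference in 10 bins of transcript length, from the shortest (1) to the longest (10), under DMSO (blue) and CBD (orange). The CBD medians run from -0.23 in the shortest bin to 0.04 in the longest, and the DMSO medians from 0.11 to -0.22.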

How the data were processed

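Per the submitters' processing notes, the RNA-seq reads were processed with TopHat, then Cufflinks, and the build was mm9, with no version named. The authors deposited 1 table per line with 1 FPKM value per gene and group, over 2 libraries each per the file headers. The authors' deposited tables also gave an unadjusted p-value for CBD against DMSO, used here after Benjamini-Hochberg adjustment over genes with a test and 1 FPKM or more in either group (10696 in wild-type and 11070 in RasV12 cells). The tables hold no library counts, so no count test was possible.

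Nameless rows (199 in the wild-type table, 0 in the RasV12 table) and rows named as dates (26 in each) were dropped. Symbols since renamed were updated through RefSeq GRCm38.p6 synonyms (1660 and 1295 rows). For a symbol on several rows the highest was used where the others were under 10% of it. By this, 53 and 10 rows of at least 1 FPKM were lost. After joining, 58 and 673 symbols stood in 1 table only, of which 20 and 71 were at 1 FPKM or more under CBD. Line differences used a pseudocount of 1 FPKM, which understates the change of low genes, and each agent's median over the 10411 genes was subtracted. Just inside the 1 FPKM limit lay 5430421F17Rik, Atp6v1c2 and Gm10658, and just outside Cpm, Dmpk and Plscr2. Lengths are of the longest GENCODE M21 transcript, and short RNA loci are small RNA genes or those with a longest transcript under 300 nt.

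Named genes were the 10 highest and 10 lowest under CBD at 5 FPKM or more, the 8 most changed of each class, up to 4 members per gene list and 22 fixed genes. The rule was applied again without short loci. Some genes that the rule names are not reported here. Further list members were added after their values were seen. The members and the lists were chosen with earlier results of these data known. The class rules were run on simulated data with changes of known size and little noise, which checks the code but not the calls made here. Python 3.11.15, pandas 2.3.3, numpy 2.4.6, scipy 1.17.1 and matplotlib 3.10.9 were used. Alternatives were the pseudocount, the FPKM limit, the centring, length bins, repeated symbols and the size of difference called.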

Additional observations from a re-analysis of the deposited data

Results flagged for a closer look

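The genes below stand out because the line difference had opposite signs under the agents and was at least 1 in size under both. Each difference given is under CBD, and for none was the change of sign tested. Amotl2 was at 2.18, against -1.55 under DMSO. Ccn1 was at 1.70, against -1.17. Jag1 was at 1.05, against -1.89. Dusp1 was at -1.26, against 2.78.

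The locus Krt6a,Krt82,Krt85, a row of several keratin genes, was at -1.32, against 1.07 under DMSO. It rose in wild-type cells from 297 to 605 FPKM and fell in RasV12 cells from 696 to 349 FPKM. Krt6b was at -1.11, against 1.18, with no called response in either line (3.95 and 8.56 FPKM in wild-type and 11.6 and 5.36 FPKM in RasV12 cells). Without centring, the differences under CBD were -0.79 for the locus, -0.59 for Krt6b and -0.74 for Dusp1, all under 1 in size. Reads of near-identical keratins may have been split. Pnpla3, a lipase of lipid droplets, was at -4.67, against 1.26. It was listed at 0 in wild-type cells under DMSO and at 82.8 FPKM under CBD, a change the authors' test did not call (adjusted p = 0.318), and it rose in RasV12 cells from 1.68 to 3.73 FPKM.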

How the results depend on the processing

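Counts of higher, lower, appearing, vanishing, kept and turned genes (main 499, 413, 392, 126, 255 and 18) stayed within 1.5 times with centring in length bins, with repeated symbols summed or left out, and with 1 FPKM in any of the 4 groups. A pseudocount of 0.1 FPKM gave 912 higher, 629 appearing and 473 kept. With no filter on low values there were 1046 higher and 206 lower. A limit of 5 FPKM gave 274 lower. Without centring there were 1868 higher, 130 lower, 948 appearing and 458 kept. Equal FPKM sums gave 923 higher and 192 lower. At a difference of 2 the counts were 64, 66, 46, 10, 38 and 5. With any difference under 1 taken as none, 639 appeared and 331 vanished. Without short RNA loci, an alternative chosen after seeing the data, 8 turned. Of 185 named genes, 150 kept their side of the threshold without centring, 13 lost the call and 22 gained one. The sign of the difference changed for 16 of the 185. Of 30 gene list medians, 9 changed sign with no filter on low values, 6 without centring and 4 with equal FPKM sums. The leukocyte markers, at 1.12 for Cd68 alone, had a median of -0.23 with no filter on low values, where more genes enter. No paired analysis was possible because the tables give no value per library, and leaving out a replicate was not run for the same reason. Depth per library is unknown, since the estimate given above was bounded in advance by its window. Small differences of low genes therefore have no error to be read against.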
